A study of Zea mays with 19 samples.

Results

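Cleavage sites in transcripts of DNA-binding proteins were read from 1 degradome library of germinating maize seeds. A degradome library captures the 5′ ends of cut transcripts, so that reads can pile up where a small RNA has guided a cut. A read at an aligned position does not by itself show that the small RNA guided a cut. A site was counted where the authors' deposited table gave at least 1 raw read for a named small RNA (not one of the candidates without a miRBase name) on a transcript whose gene ontology (GO) text held "DNA binding" or "transcription factor activity". One transcript and one cleavage position made a site. Sites were thus selected on their raw reads, and the reads, the cleavage category and the p-value of a site are all measures of that selection. The rule found 435 of the 3001 sites with reads in the table, on 385 transcripts of 80 genes, and 84 small RNAs of the named families were aligned there. The title and characteristics of the degradome library give no line, time or specific treatment, so these sites cannot be assigned to a group of the study.

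The same series holds 18 small RNA libraries of 2 maize inbred lines from the population Yuzong5, each made from the embryos of 5 seeds. The late germinating line, Yu537A, was sampled with gibberellin (GA3, 400 mg/L) at 53 h after imbibition, and without it at 6 h, 53 h and 78 h. The early germinating line, Yu82, was sampled at 6 h and 53 h. Each of these 6 groups had 3 libraries. The treatment protocol, 1 text shared by every sample and the degradome library, mentions a GA3 pretreatment of Yu537A, while the series design lists 1 GA3 group, and Yu537A libraries outside it are called untreated here. Library totals ran from 42959 to 818801 miRNA counts, and the libraries listed between 110 and 378 sequences. As a check on the tissue, the reproductive small RNA family miR2118 held at most 0.219% of the counts in any library, alone or with miR482 added. With both, the share was 0.0809% to 0.219% in the early line at 53 h. It was at most 0.0353% in the late line at that time with GA3 and 0.026% without. No sequence of miR2275, also a reproductive family, was listed. The share of miR2118 and miR482 at 6 h was at most 0.0233% in the late line and 0.0335% to 0.0723% in the early line. It was lower in the late line at both shared times, and the part of these families in the differences between the lines was not tested.

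Plant miRNAs are short RNAs that an ARGONAUTE protein carries to matching transcripts. The protein cuts the transcript opposite the middle of the miRNA, usually opposite base 10 counted from its 5′ end. Many of the oldest plant miRNA families act on transcription factors that set developmental phase, organ identity and hormone response. From other plants, miR160 and miR167 are known for auxin response factors, miR156 and miR529 for SBP (SPL) factors, miR159 for GAMYB-like MYB factors, miR319 for TCP and MYB factors, miR164 for NAC factors, miR166 for class III HD-ZIP factors, miR169 for NF-YA subunits of the CCAAT-binding complex, miR172 for AP2 factors, miR396 for growth-regulating factors and, in rice, miR444 for MADS-box factors. In germinating seeds, auxin, abscisic acid and gibberellin responses pass through several of these factors.

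Throughout, the guide of a site is the aligned small RNA with the lowest alignment score, a penalty in which 0 stands for a full match. Ties went to maize names, then to alphabetical order. The 9 guides below are those of the site with most reads in each family known for a class of transcription factors. They are printed 5′ to 3′ with T for U as in the deposited table, and capitals mark the seed (bases 2 to 8).
zma-miR160f-5p_R-2: tGCCTGGCtccctgtatgc
zma-miR444a: tGCAGTTGttgtctcaagctt
zma-miR164e-5p: tGGAGAAGcaggacacgtgag
cpa-miR159a_R+1: tTTGGATTgaagggagctctat
osa-miR166m_R-2_1ss19CT: tCGGACCAggcttcattct
zma-miR156a-5p: tGACAGAAgagagtgagcac
tcc-miR172d: aGAATCCTgatgatgctgcat
mtr-miR167b-5p_1ss21GT: tGAAGCTGccagcatgatctt
zma-miR169o-5p_R-1: tAGCCAAGaatgacttgcct
The suffixes of a name record how the sequence differs from the miRBase entry it was named after. The prefix is the species of that entry, so that only names in zma were annotated in maize. The number of seeds in a family varied. All 12 aligned miR166 sequences carried CGGACCA, all 3 of miR164 carried GGAGAAG and all 3 of miR167 carried GAAGCTG, whereas the 4 sequences of miR156 carried 2 seeds and the 12 of miR444 carried 8. By the deposited table, the precursor of zma-miR160f-5p_R-2 lies on chromosome 2 (241093436 to 241093551, minus strand), 1 precursor of zma-miR444a on chromosome 4 (128997347 to 128997396, minus strand) and that of osa-miR166m_R-2_1ss19CT on chromosome 5 (216483952 to 216484088, minus strand). The labels and headers do not name the genome build of these positions.

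Reads at the sites were few and uneven. Raw reads per site ran from 1 to 324 with a median of 2 and a sum of 5161. Just inside the rule lay 172 sites with 1 read (39.5%), and just outside it lay 2692 of the 4150 alignments of named small RNAs to these transcripts, which had no read. At least 10 reads were seen at 69 sites in 18 genes, and at least 50 reads at 16 sites in 7 genes. Those 16 sites held 3200 raw reads, or 62% of the sum. Sites were chosen for having reads, so none of these values was tested.

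One cut was often counted several times. The table lists every transcript isoform on a line of its own, and 49 of the 80 genes had sites on more than 1 isoform (up to 20). In 36 of 51 combinations of a gene with several isoforms and a family, the site with most reads had the same raw count on every isoform. The authors' normalized reads equalled the raw reads divided by a factor that was 1 at 10 sites and reached 10, its highest value, at 282 sites (64.8%). Isoforms and gene copies with the same reads therefore are not separate observations, and the text gives 1 value per gene where it can.

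**Figure D1:**
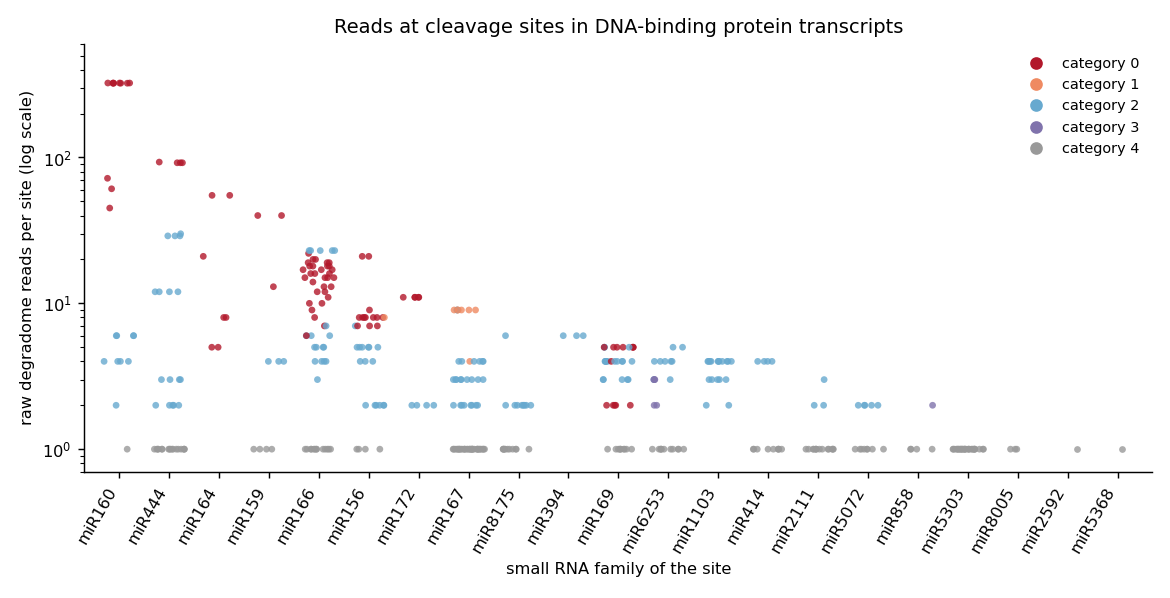
Raw degradome reads of the 435 sites (log axis), by the family of the guide; each point is a site, and colour gives the deposited cleavage category. Only miR160 sites reach above 300 reads, and sites of category 0 occur in 8 families.

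In the usual scheme of degradome analysis, category 0 marks a position that holds the highest read count of its transcript alone, category 1 a position that ties for it, category 2 a position above the transcript's median, category 3 one at or below it, and category 4 a position with a single read. The file itself does not define the categories. Category 0 held 88 sites in 25 genes (20.2%), category 1 held 9 sites in 3 genes (2.07%), category 2 held 160 sites (36.8%), category 3 held 6 sites (1.38%) and category 4 held 172 sites (39.5%). All 172 sites of category 4 had 1 read. Categories 0 and 1 together made up 97 sites in 27 genes, 22.3% of all sites (exact 95% interval 18.5% to 26.5%, which covers counting error only). The authors' p-value for the guide was at most 0.05 at 26 sites in 12 genes, and was above 0.9 at 312 sites. Taking any aligned small RNA instead of the guide, it was at most 0.05 at 45 sites in 17 genes.

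The base facing a listed position was counted in transcript bases from the 3′ end of the aligned stretch. It was base 10 at 362 sites (83.2%), base 11 at 65 sites (14.9%) and base 9 at 8 sites (1.84%). The position is listed per alignment and not per library, so these shares do not test where cuts lay. All 65 sites counted at base 11 were those of miR167, and all 8 sites counted at base 9 were miR166 alignments to the isoforms of Zm00001d039065. On isoform T001 of Zm00001d031064 the aligned stretch (3294 to 3315) was longer than its 21-base miR167 guide, so that alignment held a gap. With a gap, the count in transcript bases need not give the base of the guide. On 30 transcripts, sites of 1 base apart stood side by side, with different guides. Alignment scores ran from 0 to 4 with a median of 3.5. A score of 0 was found at 27 sites in 6 genes, and 138 sites had the highest score, 4.

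The 9 families of the list of transcription-factor regulators held 288 of the 435 sites in 58 genes. They held all 97 sites of category 0 or 1 and all 26 sites with a p-value of at most 0.05. The other 12 families held 147 sites in 23 genes, none with more than 6 reads and 0 in category 0 or 1. Their median score was 3.5 against 2 in the listed families, 146 of the 147 scored at least 3, and 90 had a single read. The list was drawn up with earlier results of these data known and from targets known in plants, so this contrast is a description.

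miR160, whose family is known for auxin response factors, dominated the reads. Its 21 sites in 5 genes held 2809 of the 5161 raw reads, 54.4% (exact 95% interval 53.1% to 55.8%, counting error only). With 1 site per gene the share was 56.2% (53.6% to 58.7%), and with the authors' normalized reads it was 62.7%. All 5 genes had a site of category 0 opposite base 10 of zma-miR160f-5p_R-2. Zm00001d014013 had 324 raw reads on each of 4 isoforms (81.0 normalized reads each) with a score of 0 and a p-value of 0.0563, at position 3482 of isoform T001. Zm00001d014507 had 323 raw reads on each of 4 isoforms (64.6 normalized reads each), also at a score of 0. Both genes stood far above the remaining 3. Zm00001d017284 had 72 raw reads and Zm00001d051172 had 61, each on its only listed isoform, at a score of 1 and with the lowest p-value of all sites, 0.0077. Their normalized reads equalled their raw reads. Zm00001d032683 had 45 raw reads on its only listed isoform at a score of 0. The GO text of 4 of the 5 genes named the auxin-activated signaling pathway. It named a response to hormone for Zm00001d014507.

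Next to 10 of these 11 main miR160 sites lay a weaker one, 1 base downstream, whose guide was the longer ppt-miR160a_L+1. It had 6 reads at Zm00001d014013, 2 at Zm00001d017284 and 1 at Zm00001d051172. The cut opposite base 10 of the shorter guide thus held nearly all the reads of each pair.

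miR444, a family of grasses, had 38 sites in 5 genes and 573 raw reads, 11.1% of the sum. Almost all came from Zm00001d050897 and Zm00001d016957. The site of zma-miR444a held 93 raw reads on isoform T001 of Zm00001d050897 (24.0 normalized) and 92 on each of 3 isoforms of Zm00001d016957 (23.0 normalized), all at a score of 0, in category 0 and with a p-value of 0.0221. The raw count at Zm00001d016957 was 4 times the normalized value although the gene had 3 isoforms with the site. The values at Zm00001d050897 are those that the same 92 reads and 1 unshared read would give. Counts with 1 site per gene thus take these reads more than once. On both genes 5 more positions lay within 15 bases. Counted on T001 of Zm00001d050897, they stood at positions 417, 418, 424, 429 and 438 around the main one at 423. The strongest of them, at 438, had 30 reads and a score of 0 with zma-MIR444b-p5, and the position at 417 had 12 reads with bdi-miR444a_L-1R+1_1ss4CT.
zma-MIR444b-p5: tTTTCTTGcaagttgtgcagt
The small RNAs of this cluster have unlike seeds and overlapping target windows. Zm00001d017932, Zm00001d005244 and Zm00001d010235 had 1 read at each miR444 site. The first had a score of 0 and the others a score of 4.

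miR164, whose family is known for NAC factors, had 7 sites in 4 genes, all of category 0. Zm00001d050893 had 55 raw reads on each of 2 isoforms with zma-miR164e-5p at a score of 3. Zm00001d014405 had 21 raw reads, equal to its normalized reads, with zma-miR164f-5p_R-1 at a score of 1 and a p-value of 0.0153. Zm00001d016950 had 8 reads and Zm00001d003414 had 5. In this family the site with the best score was not the one with most reads.

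miR159, whose family is known for GAMYB-like factors, had 10 sites in 7 genes and 109 raw reads. Zm00001d043131 had 40 raw reads on each of 2 isoforms with cpa-miR159a_R+1, a score of 3 and a p-value of 0.008, and 4 reads 1 base upstream, where zma-miR159c-3p_L-1R-1 was the guide at a score of 2. Zm00001d036551 had 13 reads with zma-miR159a-3p and a p-value of 0.0118. The lowest score of the family, 1, belonged to sites with 1 read in Zm00001d046517 and Zm00001d046518. miR319 was also aligned at 3 of these sites, and never had a better score than miR159. Its lowest score, 2, equalled that of zma-miR159c-3p_L-1R-1.

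miR166, whose family is known for class III HD-ZIP factors, had 63 sites in 9 genes and 667 raw reads, 12.9% of the sum, or 7.42% with 1 site per gene. A pair of genes had category 0 on every listed isoform. Zm00001d027317 had 13 to 22 reads on 16 isoforms, and Zm00001d048527 had 6 to 19 reads on 15. Zm00001d008869 had 7 reads on its only isoform, also in category 0. The highest counts per site, 23 in Zm00001d013699 and Zm00001d033246, were in category 2. In both the raw reads were 10 times the normalized ones, so their equal counts cannot be told apart from shared reads. Summed over isoforms, normalized reads were 2.3 and 9.2 in these genes, 27.5 in Zm00001d027317 and 19.3 in Zm00001d048527. The GO text named lipid binding at 55 of the 63 sites, in 8 of the 9 genes, and at 0 sites of the other families. Zm00001d041489 and Zm00001d031061 had 3 to 7 reads in category 2, and Zm00001d032681 had 1 read per isoform. The gene without that term, Zm00001d039065, was the one with positions counted at base 9, a score of 4 and 1 read per isoform. All 63 sites had the rare osa-miR166m_R-2_1ss19CT as the guide by score, while zma-miR166a-3p aligned to 55 of them at a score of 3.

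miR156, whose family is known for SBP factors, reached most genes. It had 34 sites in 13 genes, scores of 1 to 2 throughout and 201 raw reads. Zm00001d006091 and Zm00001d021056 had 21 raw reads each, the raw reads being 3 times the normalized ones in both, and stood in category 0 at a score of 1. Zm00001d053775 had 9 reads. Zm00001d053890 had 8 reads on each of 8 isoforms, 7 of them in category 0 and 1 in category 1. Zm00001d015410 had 7 reads on 3 isoforms and the lowest p-value of the family, 0.0416. Zm00001d012015 with 7 reads and Zm00001d014698 with 5 were in category 2, and the other 6 genes had at most 4 reads. Since the normalized reads of the first pair were divided over more transcripts than the isoform listed, their equal counts cannot be told apart from shared reads.

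miR172, whose family is known for AP2 factors, had 9 sites in 2 genes, all at a score of 1 with tcc-miR172d. Zm00001d034629 had 11 reads and category 0 on each of 5 isoforms (p-value 0.0636), and Zm00001d035512 had 2 reads in category 2. The GO text of both named development of a multicellular organism.

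miR169, whose family is known for NF-YA subunits, had 41 sites in 9 genes but at most 5 reads at any. Zm00001d033602 had 5 reads on each of 4 isoforms. On 3 of them the site was in category 0 with a p-value of 0.0194, and on the other it was in category 2. Zm00001d027874 had 1 to 5 reads on 10 isoforms, 5 of them in category 0, and Zm00001d002332 had 2 reads on 5 isoforms, all in category 0. The guide at Zm00001d002332 was lus-MIR169f-p3_2ss12AT17TG, which lacks the seed AGCCAAG that 8 miR169 sequences carried. It was listed in replicate 2 of the late line at 53 h alone, with 14 counts. The GO text named the CCAAT-binding factor complex at 22 of the 41 sites. A pair of other genes, Zm00001d034479 and Zm00001d013066, carried nucleosome terms and had 4 and 3 reads at a score of 4. Their guide, zma-miR169o-3p_L+1, also lacks the seed AGCCAAG.

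miR167, the other family known for auxin response factors, had most sites and few reads. It had 65 sites in 4 genes and 176 raw reads, 3.41% of the sum, or 1.16% with 1 site per gene. Each site had a score of 4 and a position counted at base 11 in transcript bases, where a gap in the alignment can shift the count. Zm00001d031064 had 9 reads on each of 8 isoforms with mtr-miR167b-5p_1ss21GT, of category 1 on 7 of them and with a p-value of 0.0422. Zm00001d041497 had 2 to 4 reads on 17 isoforms, and Zm00001d001879 and Zm00001d026590 had 1 or 2 reads on 20 each. The GO text named the auxin-activated signaling pathway at 45 of the 65 sites. Both auxin-related families were thus present, with 825 reads for miR160 and 17 for miR167 when 1 site per gene was counted.

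The 12 families outside the list had weak sites in unlike genes. miR1103 had 18 sites of 2 to 4 reads in Zm00001d002366, whose GO text names the TFIIE complex of transcription initiation. miR5303 had 28 sites of 1 read in Zm00001d017505, Zm00001d017507 and Zm00001d035113, and the GO text of all 3 names the TFIIIB complex, which serves RNA polymerase III. miR2111 had 17 sites of 1 to 3 reads in Zm00001d023640, a gene with ubiquitin hydrolase terms. The highest count, 6 reads, was reached by miR394 in Zm00001d049495 and by miR8175 in Zm00001d046299, both at a score of 4. miR858, known in Arabidopsis for MYB factors, had 5 sites in 5 genes with 1 or 2 reads, all at a score of 4. miR6253 had 25 sites of 1 to 5 reads, miR414 and miR5072 had 13 sites each of at most 4 reads, miR8005 had 3 sites, and miR2592 and miR5368 had 1 each. The miR2592 site, in Zm00001d020804, was the only one of these 147 sites with a score under 3.

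A word of the class known for the family was found at 80 sites, 13 of miR160, 45 of miR167 and 22 of miR169. The GO text, the other annotation text and the gene ID were searched. No such word was found for the other listed families, so the class of their genes could not be checked. Names and roles of the single genes are likewise not given here, since the gene IDs of the files were not in the gene table used.

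Many genes with an alignment had no read. Of 368 DNA-binding protein genes to which a named small RNA was aligned, 80 had reads (21.7%, exact 95% interval 17.6% to 26.3%). The gap differed between families. miR156 had reads in 13 of 26 aligned genes, miR166 in 9 of 14, miR159 in 7 of 13 and miR160 in 5 of 12. miR444 had reads in 5 of 38 aligned genes and miR169 in 9 of 28. miR529, which shares the SBP factors with miR156, had 16 aligned genes and no reads. No reads were found for miR396 with 5 aligned genes or miR390 with 3. The lowest score was 2 for miR529, and 4, the highest penalty listed, for miR396 and miR390.

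**Figure D2:**
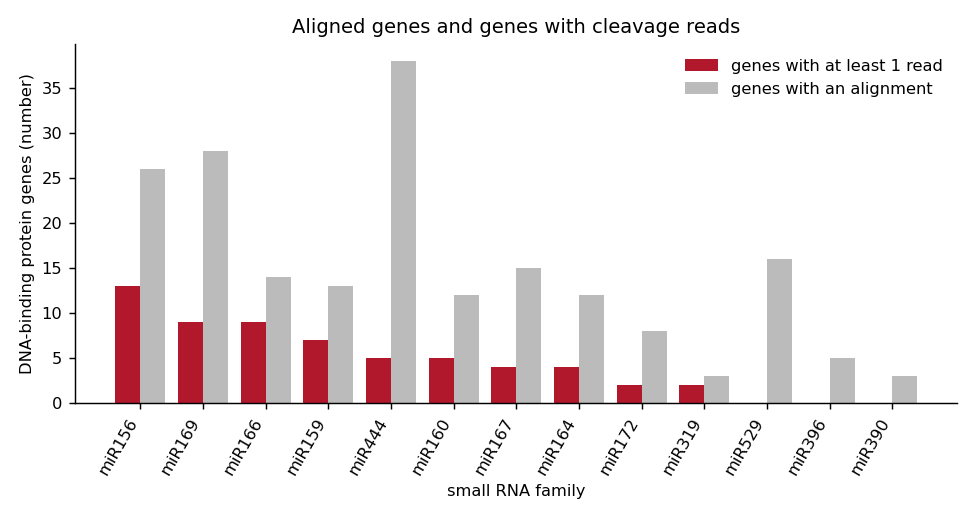
Number of DNA-binding protein genes with at least 1 degradome read (red) and with an alignment (grey), for the listed families. miR529, miR396 and miR390 had alignments to 16, 5 and 3 genes, at lowest scores of 2, 4 and 4, and reads in none.

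Reads were more frequent at scores of at most 2 than at higher ones. The score of a pair was the lowest of the family on that transcript, and reads at any alignment of the pair counted. Of pairs of a transcript and a family, 88.2% had reads at a score of 0 (15 of 17), 56.3% at 0.5 to 1, 55.2% at 1.5 to 2, 11.2% at 2.5 to 3 and 14.7% at 3.5 to 4. The exact 95% intervals of the first 3 classes, which start at 63.6%, 44.0% and 47.5%, lay above those of the last 2, which end at 16.4% and 16.6%. Pairs on isoforms of 1 gene are not independent.

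DNA-binding protein transcripts were set beside the 1306 sites of named small RNAs in transcripts whose GO text held neither phrase (247 genes). Sites of category 0 or 1 made up 22.3% in DNA-binding protein transcripts and 7.73% in other annotated transcripts (exact 95% intervals 18.5% to 26.5% and 6.34% to 9.32%). With 1 site per gene the shares were 33.8% (23.6% to 45.2%) and 13.4% (9.38% to 18.2%). A score of at most 2 was found at 41.8% of the sites in DNA-binding protein transcripts and 13.3% of those in other annotated transcripts, and a p-value of at most 0.05 at 5.98% and 2.07%. Genes with an alignment had reads in 21.7% of cases among DNA-binding protein genes and 10.3% among other annotated genes (17.6% to 26.3% and 9.14% to 11.6%). Median raw reads per site were 2 in both, and with 1 site per gene they were 4 in DNA-binding protein genes and 2 in other annotated genes. The most-read site outside the DNA-binding protein transcripts had 3852 reads. No test was made, since all sites come from 1 library, and isoforms share reads.

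The difference was not uniform over families. For miR166, category 0 or 1 held 50.8% of the sites in DNA-binding protein transcripts (37.9% to 63.6%) and 50.0% in other annotated transcripts (32.4% to 67.6%). For miR156 it held 41.2% (24.6% to 59.3%) and 0 of 32 sites (at most 10.9%), and for miR169 31.7% (18.1% to 48.1%) and 0 of 245 sites (at most 1.49%). In the same order, the sites lay in 9 and 3 genes for miR166, 13 and 4 for miR156, and 9 and 31 for miR169. Of the 13 miR169 sites of category 0 or 1 in DNA-binding protein transcripts, 5 were those of Zm00001d002332, whose guide has another seed. Among families outside the list the order turned, with 0 of 147 sites in DNA-binding protein transcripts (at most 2.48%) and 6.74% of 682 sites in other annotated transcripts (4.98% to 8.89%). At a score of 0, pairs with reads made up 88.2% in DNA-binding protein transcripts and 44.6% in other annotated transcripts (63.6% to 98.5% and 32.3% to 57.5%). At 0.5 to 1 the shares were 56.3% and 51.9%, with overlapping intervals. At 1.5 to 2 they were 55.2% (47.5% to 62.7%) and 31.5% (26.5% to 36.7%), and at 3.5 to 4 they were 14.7% (13.0% to 16.6%) and 8.37% (7.81% to 8.95%), both without overlap. At 2.5 to 3 the share was lower in DNA-binding protein transcripts, 11.2% (7.25% to 16.4%) and 13.8% (12.2% to 15.5%), with overlapping intervals. All intervals of this paragraph treat isoforms of 1 gene as independent, which they are not. A lack of overlap between them is therefore a description.

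**Figure D3:**
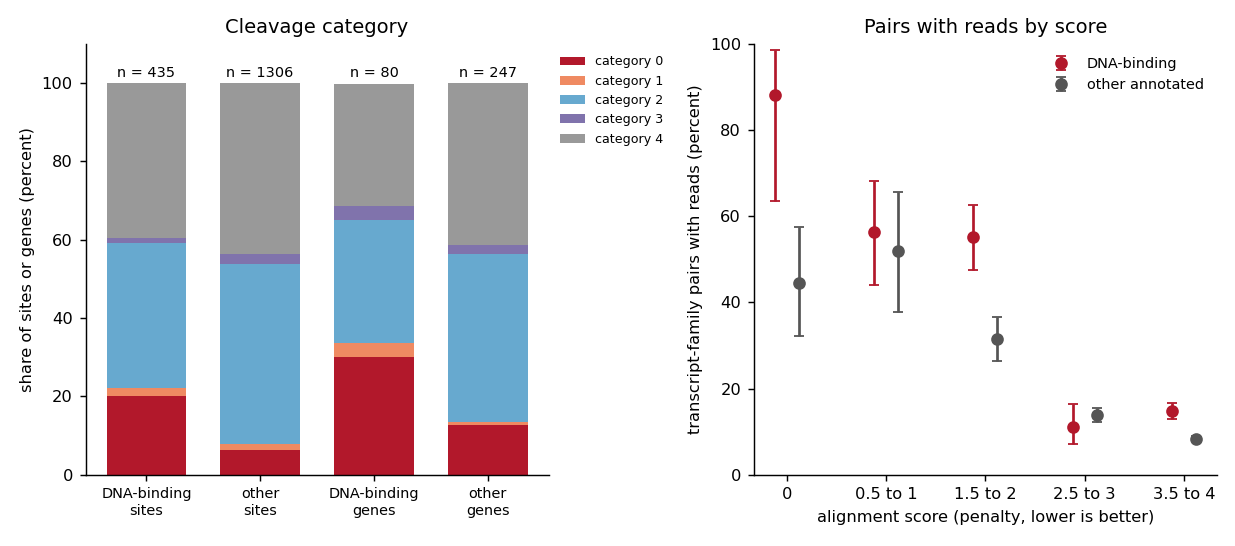
Left, share of sites (or of genes, by their most-read site) in each cleavage category in DNA-binding protein transcripts and in other annotated transcripts, with n above each bar. Right, share of transcript-family pairs with reads by alignment score, with exact 95% intervals. Category 0 (red) holds 20.2% of the DNA-binding sites and 6.36% of the others.

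Among the 21 families that held a site, miR166, miR444 and miR160 had the largest shares both of the miRNA counts and of the cleavage reads, in a different order. miR319 was the guide of no site and is left out of this ranking. Its most abundant aligned sequence had a higher mean level than that of miR160. miR160 held 54.4% of the cleavage reads and on average 2.63% of the miRNA counts over the 18 libraries (0.951% to 4.93%). miR166 held 12.9% of the cleavage reads and 58.4% of the counts (46.1% to 65.8%). miR444 held 11.1% and 8.02%. miR164 and miR172 held 3.04% and 1.22% of the cleavage reads with 0.0862% and 0.00306% of the counts. The guide by score was not always the most abundant sequence of its family. In CPM (counts scaled to a common library size by the trimmed mean of M values, TMM), zma-miR166a-3p averaged 612000 CPM over the 18 libraries and osa-miR166m_R-2_1ss19CT 183 CPM, and zma-miR160a-5p averaged 23500 CPM and zma-miR160f-5p_R-2 870 CPM.
zma-miR166a-3p: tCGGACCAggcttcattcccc
zma-miR160a-5p: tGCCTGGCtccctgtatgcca
Each of these abundant forms shares its seed and most of its length with the guide, from which it differs at the 3′ end. The degradome cannot tell which of them made a cut. The 2 kinds of library measure different things, and the degradome library has no group, so no ratio was formed.

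Levels of the guides in the small RNA libraries were not part of the rule, and could be tested. Of the 42 guides, 41 were in the miRNA table and 27 passed the filter on low counts. The other 14, among them tcc-miR172d, zma-miR164f-5p_R-1 and cpa-miR159a_R+1, had too few counts to test. The test was edgeR's quasi-likelihood F test over all 223 sequences that passed, two-sided, with Benjamini-Hochberg adjustment. Group levels are given in TMM-scaled CPM, as mean ± SD of 3 libraries. Groups can differ because each cell holds more of a miRNA or because more cells hold it, and bulk libraries cannot tell these apart.

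**Figure D4:**
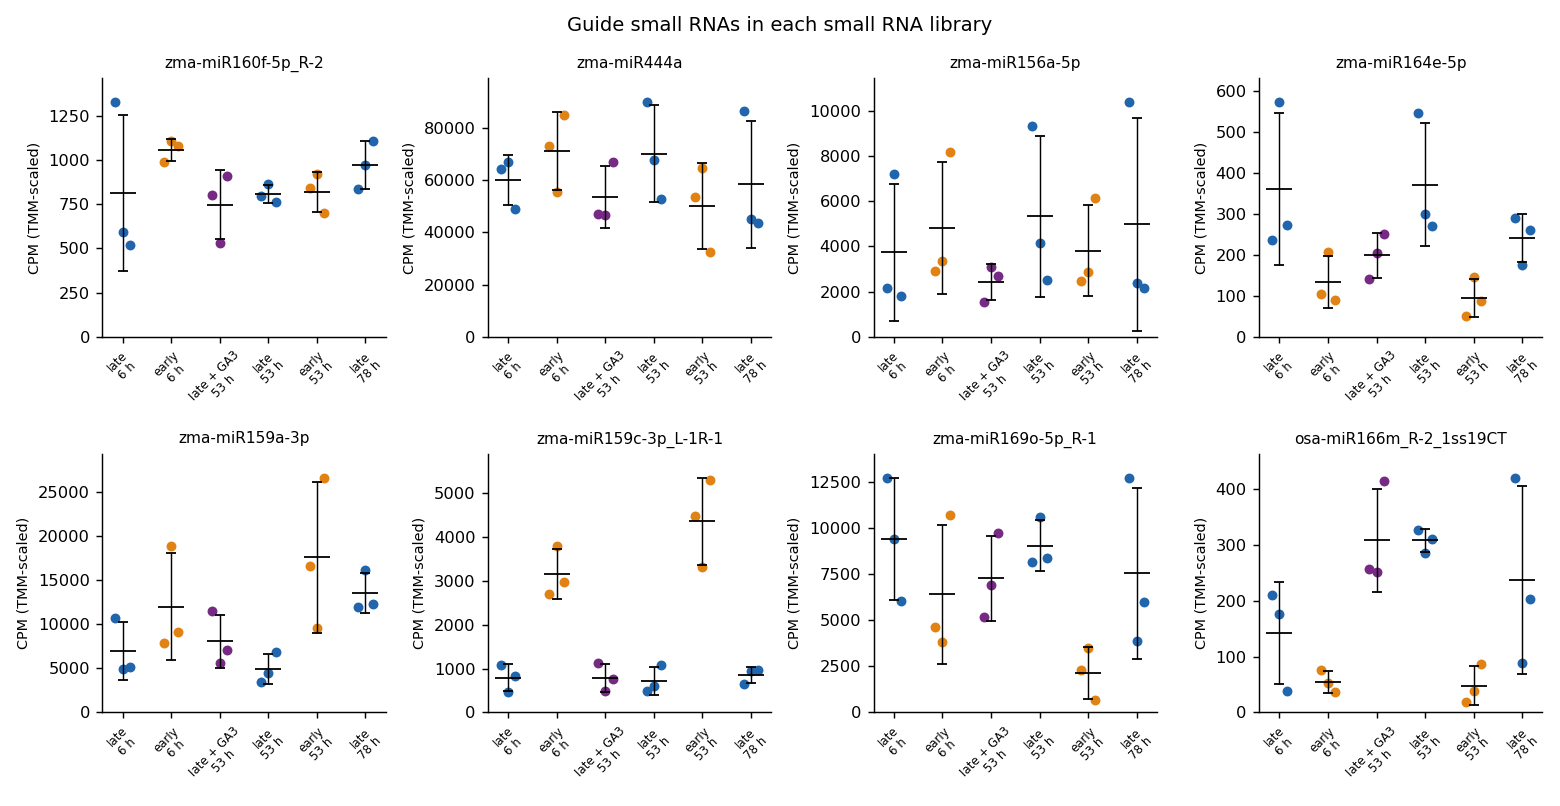
Level in CPM of 8 guides in each of the 18 small RNA libraries (points), with mean and SD per group (bars), from 6 h to 78 h after imbibition; late line in blue, late line with GA3 in purple, early line in orange. zma-miR159c-3p_L-1R-1 lies at or below 1120 CPM in every late-line library and at or above 2710 CPM in every early-line library.

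GA3 was asked about at a matched time, the late line at 53 h. None of the 27 guides changed by the edgeR test, with 0 of 223 sequences called in the whole table (0.0%). An unadjusted p under 0.05 was found for 1 guide and for 9 of all sequences, and DESeq2 called 0 as well. Log2 fold changes of the guides, GA3 over untreated, ran from -1.14 to 3.58 with a median of -0.18, and the median of all sequences was 0.0. zma-miR160f-5p_R-2, the guide of the most-read sites, had 802, 530 and 911 CPM with GA3 and 800, 864 and 763 CPM without (log2 fold change -0.11, SE 0.39). zma-miR444a had 53500 ± 11800 CPM with GA3 and 70200 ± 18700 CPM without (-0.39, SE 0.37), and zma-miR156a-5p had 2430 ± 805 and 5330 ± 3570 CPM (-1.14, SE 0.71). In each of these 3 the libraries of both groups overlapped. The groups did not overlap for 4 of the 27 guides, beside 24 of the 223 sequences, and none of the 4 passed the test (adjusted p = 1.0 each). zma-miR164e-5p had 141, 204 and 252 CPM with GA3 and 546, 301 and 271 CPM without (-0.91, SE 0.60). mtr-MIR2592bj-p3_2ss12TC19AT, the guide of 1 site with 1 read, had 550, 537 and 223 CPM with GA3 and 17.7, 83.4 and 0 CPM without (3.58, SE 1.54), and was the guide with an unadjusted p under 0.05. The others, smo-MIR1103-p3_1ss10CT_1 and osa-miR5072_L-4, had log2 fold changes of 1.76 (SE 1.96) and -0.86 (SE 0.72). In simulated data of this design 2.04% of 4-fold changes and 33.3% of 16-fold changes were recovered, which limits what a lack of calls can show. The simulation gave all sequences 1 common spread, so these rates need not hold for a single guide.

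Between the lines at 6 h, 2 of the 27 guides were lower in the late line and 0 higher, beside 9 lower (4.04%) and 6 higher (2.69%) of all 223 sequences. The median log2 fold change, late over early, was -0.05 for the guides and -0.30 for all sequences. For zma-miR159c-3p_L-1R-1 the late-line libraries held 1080, 471 and 825 CPM and the early-line libraries 2710, 3790 and 2970 CPM, with no overlap (791 ± 304 and 3160 ± 565 CPM, adjusted p = 0.00881 by edgeR). Without replicate 1 of the late line the adjusted p was 0.0591. The other was bdi-MIR444d-p5_1ss2GA, a guide of 6 weak sites (score 4, 1 read each). Each of the 12 late-line libraries listed it at 0, while the early-line libraries at 6 h held 224, 236 and 274 CPM (adjusted p = 0.00484 by edgeR). If listing began at 4 counts per library, this was at least 7.8-fold lower in the late line.
zma-miR159c-3p_L-1R-1: tTGGATTGaagggagctcc
bdi-MIR444d-p5_1ss2GA: cAGCAAGCtagaggcagcaac
The first is the 19-base form of a miR159 sequence. It starts 1 base later than zma-miR159a-3p, so its seed is shifted, and it was the guide of 3 sites with at most 4 reads.

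Between the lines at 53 h, 3 of the 27 guides were lower in the late line and 2 higher, beside 9 lower (4.04%) and 15 higher (6.73%) of all 223 sequences. The median log2 fold change was 0.48 for the guides and 0.11 for all sequences. Both called members of miR159 were lower. For zma-miR159c-3p_L-1R-1 the late-line libraries held 481, 593 and 1080 CPM and the early-line libraries 4470, 3320 and 5300 CPM (-2.61, SE 0.45, adjusted p = 0.00157). zma-miR159a-3p, the guide of the Zm00001d036551 site, stood at 3410, 4510 and 6810 CPM in late-line libraries and at 16600, 9540 and 26600 CPM in early-line libraries (-1.84, SE 0.48, adjusted p = 0.0202). The groups did not overlap for either. The call of zma-miR159a-3p was lost without replicate 1 or 2 of the late line (adjusted p = 0.111 and 0.106) and without replicate 1 or 3 of the early line (0.0655 and 0.134). For bdi-MIR444d-p5_1ss2GA all late-line libraries were at 0, and the early-line libraries at 403, 967 and 591 CPM (adjusted p = 0.00183), which under the same condition was at least 32.7-fold lower in the late line.

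The 2 higher guides belonged to miR169 and miR166. zma-miR169o-5p_R-1, the guide of the Zm00001d033602 site, stood at 8160, 10600 and 8350 CPM in late-line libraries and at 2280, 3480 and 668 CPM in early-line libraries (2.07, SE 0.58, adjusted p = 0.0294). osa-miR166m_R-2_1ss19CT, the guide by score of the miR166 sites, stood at 327, 286 and 311 CPM in late-line libraries and at 18.8, 37.6 and 87.5 CPM in early-line libraries (2.72, SE 0.83, adjusted p = 0.0439), from 4, 8 and 8 counts in the early line. No libraries overlapped. The call of zma-miR169o-5p_R-1 was lost without replicate 2 or 3 of the late line (adjusted p = 0.0769 and 0.0849) and without replicate 1 or 3 of the early line (0.109 and 0.156). That of osa-miR166m_R-2_1ss19CT was lost without any 1 of the 6 libraries (adjusted p from 0.0613 to 0.165). With library totals in place of TMM neither was called (adjusted p = 0.0595 and 0.126). Over all sequences that scaling gave 6 higher and 19 lower calls, DESeq2-type size factors in edgeR gave 11 and 11, and TMM gave 15 and 9, so the balance of directions at 53 h followed the scaling. Replicate 3 of the early line had the lowest library total, 42959 counts.

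Several other guides were not called. zma-miR164e-5p stood at 546, 301 and 271 CPM in late-line libraries and at 51.6, 146 and 87.5 CPM in early-line libraries at 53 h, with no overlap (log2 fold change 1.97, SE 0.63, adjusted p = 0.0546). zma-miR167a-5p, the guide of 40 sites with 1 or 2 reads, averaged 4670 ± 2770 and 1190 ± 112 CPM in late and early lines (1.98, SE 0.68, adjusted p = 0.0629). At 53 h zma-miR160f-5p_R-2 had 809 ± 51.1 CPM in late-line and 820 ± 111 CPM in early-line libraries (-0.02, SE 0.39), zma-miR444a averaged 70200 ± 18700 CPM in late-line and 50200 ± 16500 CPM in early-line libraries (0.48, SE 0.37), and zma-miR156a-5p 5330 ± 3570 CPM and 3820 ± 2010 CPM (0.48, SE 0.70). For the last 3 the libraries overlapped. zma-miR166a-3p, the abundant member of miR166, was not called either (1.07, SE 0.41, adjusted p = 0.0938).

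**Figure D5:**
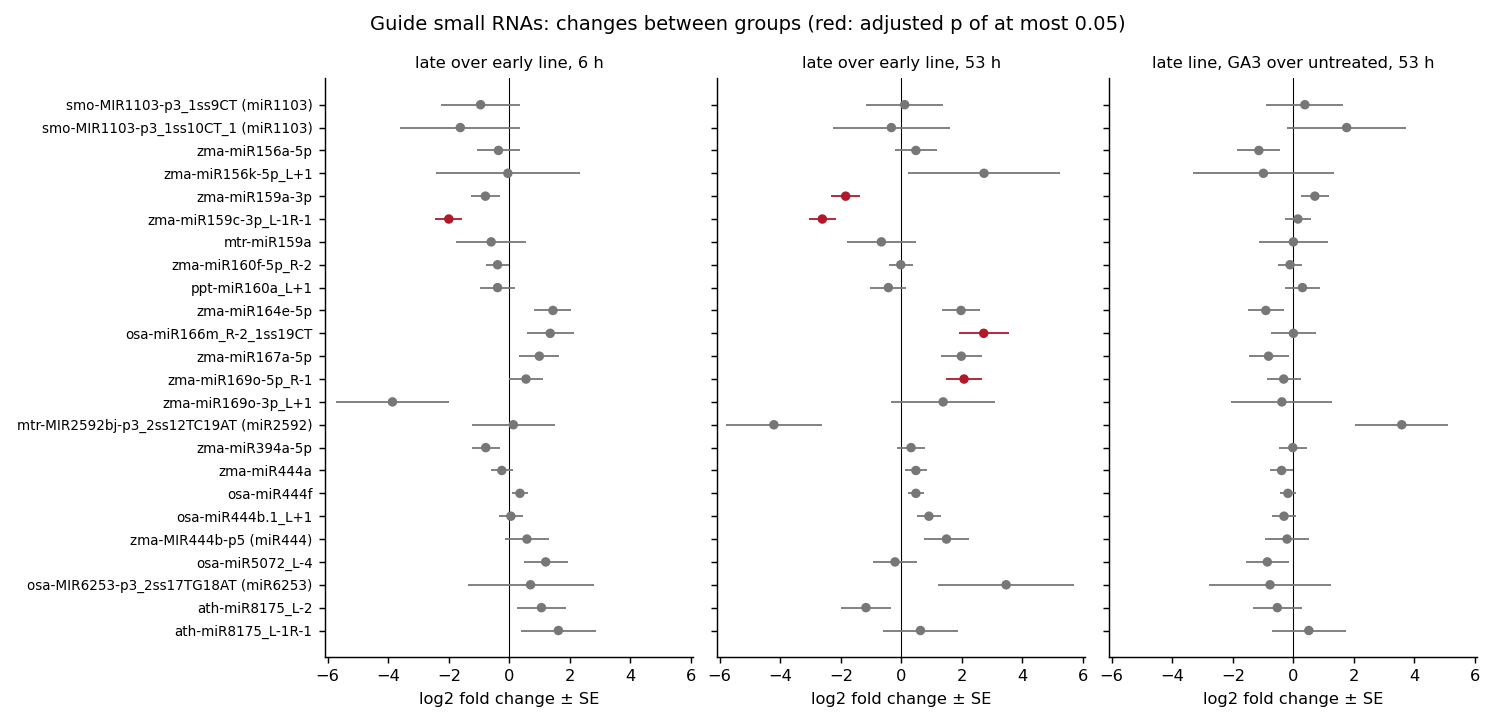
Log2 fold change ± SE of 24 tested guides in the 3 comparisons; red marks an adjusted p of at most 0.05 by edgeR. The 3 guides listed at 0 in all libraries of a compared group are left out. At 53 h both called miR159 guides lie left of 0 and the called miR169 and miR166 guides lie right of it.

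Whether the difference between the lines itself changed from 6 h to 53 h was tested as an interaction. It was called for 0 of 27 guides and 0 of 223 sequences by edgeR (lowest adjusted p = 0.59 and 0.57), with an unadjusted p under 0.05 for 1 guide and 17 sequences. Guides called at 53 h and not at 6 h are thus not shown to differ between the times. At 78 h only the late line was sampled, where zma-miR160f-5p_R-2 stood at 973 ± 137 CPM, zma-miR159a-3p at 13500 ± 2270 CPM and zma-miR159c-3p_L-1R-1 at 853 ± 177 CPM (n = 3).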

How the data were processed

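Small RNA libraries (18) and 1 degradome library were used. The authors deposited expected counts per miRNA entry, which split a sequence between its precursors, and a scaled signal that was not used. For the degradome the authors deposited raw read counts per site, a signal (normalized reads), a p-value, an alignment score and, as another measure, the cleavage category. The aligner, the site caller and the genome build were not stated in the labels or headers. The degradome file held 41969 rows, 5198 of them with reads, beside 5176 empty lines.

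Expected counts were summed over entries, rounded and merged to 527 sequences. The test used edgeR 4.0.16 (R 4.3.3) and 1 model over 6 groups, TMM scaling and a minimum count of 10, and checked on simulated data. DESeq2 1.42.0 was an alternative. Tables and plots used Python 3.11.15 with pandas 2.3.3, scipy 1.17.1 and matplotlib 3.10.9. P-values of edgeR and DESeq2 set a difference between groups against the spread between these libraries. P-values of sites are the authors' and come from 1 degradome library. A fold against a group listed at 0 was set against 4 counts per library, the smallest value listed in most libraries. Intervals are exact (Clopper-Pearson, 95%). Without molecular identifiers they cover counting error only.

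Named sites were the 15 with most reads, the 5 with the lowest p-value and, for each listed family, those with most reads and the lowest score. Other genes were named after their values were seen, to account for the rest of a family. Members, lists and tests were chosen with earlier results of these data known.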

Additional observations from a re-analysis of the deposited data

Results flagged for a closer look

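The table also held 1001 sites of named small RNAs on transcripts without GO text, which entered no comparison. Of these, 173 repeated the small RNA, the raw reads and the normalized reads of a site in a DNA-binding protein transcript. The highest raw count on a transcript without GO text was 3852.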

How the results depend on the processing

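The degradome values depended on the sites kept, and the sets by GO phrase and by score of at most 3, the latter chosen after seeing the data, are subsets by construction. With at least 5 reads there were 132 sites in 12 families, 68.2% of category 0 or 1, 60.7% of reads at miR160, a median score of 1.5 and 29 sites with a class word. With a p-value of at most 0.05 for any aligned small RNA the values were 45, 8, 100%, 80.4%, 2.5 and 23. With categories 0 to 2 there were 257 sites, 37.7%, 56.5% and a median score of 2. With 1 site per gene there were 80 sites, 33.8%, 56.2%, a median score of 2 and 10 class words. With the phrase "transcription factor activity" alone there were 115 sites in 7 families, 0% of reads at miR160, whose genes lack that phrase, a median score of 2 and 22 class words. With maize-named small RNAs alone there were 222 sites in 10 families, 37.8%, 59.6%, 2.5 and 49. With a score of at most 3 there were 206 sites in 10 families, 42.2%, 59.8%, 1.5 and 35. By normalized reads miR160 held 62.7%. A score of at most 4 changed nothing, since no score was higher. Under GA3 0 guides were called in every setting tried. At 6 h library totals alone gave 4 called guides, and leaving out 1 library gave 1 to 2. At 53 h library totals alone gave 3, no low-count filter 8 and DESeq2 8, and leaving out 1 library gave 2 to 5. Taking all aligned small RNAs for the guides, also chosen after seeing the data, gave 3 at 6 h and 5 at 53 h. Over all sequences the count at 53 h was 24, with 40 without the filter, 50 by DESeq2 and 8 to 26 without 1 library, and at 6 h 15, with 23 on library totals, 24 in a fit of those groups alone, 28 by DESeq2 and 7 to 11 without 1 library. Library totals alone moved the median log2 fold change of all sequences from its TMM value by more than 0.1 in every comparison, to 0.15 under GA3, -1.03 at 6 h (5 higher, 18 lower calls) and -0.78 at 53 h (6 higher, 19 lower). No named guide called by the main test changed direction in the alternatives run. Equal replicate numbers did not pair the libraries: the correlations of their deviations ran from -0.368 to 0.171. With the replicate block 1 guide was called at 6 h and 2 at 53 h (10 and 5 over all sequences), and 0 under GA3. Data were also simulated at the depth of these libraries, with 1 spread common to all sequences. There, 6.06% of 4-fold changes between the lines were recovered at 53 h and 0% at 6 h. Real sequences differ in spread, so these rates need not hold for a single guide. The part of depth in them was not tested.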
